A study of Homo sapiens with 11 samples.

Results

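The subject here is the interaction of siRNA and epidermal growth factor (EGF) withdrawal in hTert-HME1, a human mammary epithelial cell line immortalised with telomerase. For each gene, the interaction was the mean without EGF minus the mean with EGF in cells labelled BRCA2 siRNA, minus the same difference in cells labelled control siRNA. The question was which responses to the loss of EGF differed between the siRNAs and which did not. All genes with a deposited log2 value of at least 3.32 in at least 2 libraries were members, which gave 17945 of the 40460 genes in the table. The 11 libraries fell into 4 groups: BRCA2 siRNA (labelled BRCA2-1) without EGF, 3 libraries; BRCA2 siRNA with EGF (complete medium), 3 libraries; control siRNA (labelled control-2) without EGF, 2 libraries; and control siRNA with EGF, 3 libraries. All cells were at passage 6, were transfected with siRNA by RNAiMAX and were grown in a mammary epithelial growth medium, and total RNA was sequenced after removal of ribosomal RNA. Each target had a single siRNA in a single cell line, the labels give no protein level, and the replicates A, B and C are labelled biological, with no B among the control libraries without EGF. Sequencing depth could not be read from the files, which give no read counts.

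EGF binds its receptor, a tyrosine kinase, and drives the RAS-MAPK and PI3K-AKT pathways, which carry mammary epithelial cells through the cell cycle. Signalling through MAPK induces ETS factors of the PEA3 family and inhibitors such as Sprouty and dual-specificity phosphatases that feed back on the pathway, while AKT keeps FOXO transcription factors out of the nucleus. When EGF is withdrawn, basal epithelial cells tend to leave the cell cycle and to take on features of squamous differentiation. BRCA2 acts in the repair of DNA breaks by homologous recombination.

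BRCA2 itself, the targeted gene, showed no lower level in cells that carry its siRNA by label. Its log2 values were 12.48, 12.27 and 12.11 without EGF and 12.43, 12.37 and 12.40 with EGF in the BRCA2-labelled libraries. In the control libraries they were 11.44 and 11.65 without EGF and 12.45, 12.13 and 12.48 with EGF. With EGF the groups overlapped, and without EGF every BRCA2-labelled library lay above both control libraries. The interaction of BRCA2 was 0.69 ± 0.17 (log2, moderated standard error), with an adjusted p of 0.0532 in limma, so it missed the threshold of 0.05. Without EGF, BRCA2 was higher in BRCA2-labelled than in control cells, by 0.74 ± 0.13 (adjusted p 0.00397). The groups are therefore called BRCA2-labelled below, after their label.

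Basal markers were high in every library, with KRT5 between 17.21 and 18.78, KRT14 between 16.30 and 17.85 and TP63 between 13.01 and 14.04 on the log2 scale. Of the general epithelial markers, KRT8 lay between 10.51 and 11.41, KRT18 between 10.94 and 11.98, CDH1 between 6.94 and 11.09 and EPCAM between 0.15 and 0.67. Of 4 leukocyte markers, CD3E was below 0 in every library, PTPRC and ITGAM did not exceed 3.10 and CD14 lay between 3.00 and 5.61. Of 3 endothelial markers, CDH5 was below 0 in every library, VWF did not exceed 3.70 and KDR lay between 7.31 and 10.40. The summed level of 8 mesenchymal markers was 11.85 to 12.57 without EGF and 10.88 to 11.05 with EGF in BRCA2-labelled libraries, and 13.05 to 13.17 without EGF and 10.73 to 11.10 with EGF in control libraries. The leukocyte sum was 4.75 to 4.94 without EGF and 4.22 to 4.59 with EGF in BRCA2-labelled libraries, and 5.40 to 5.89 without EGF and 4.22 to 4.61 with EGF in control libraries. The endothelial sum was 8.07 to 8.71 without EGF and 7.45 to 8.42 with EGF in BRCA2-labelled libraries, and 10.16 to 10.41 without EGF and 7.39 to 8.56 with EGF in control libraries. All 3 sums were highest in the control libraries without EGF, as the blunted rises described below were, and their part in those results was not tested. So were the sums of the basal (19.57 to 19.74), epithelial (12.73) and cornified-layer markers (9.92 to 10.07). The endothelial sum was nearly all KDR, itself one of those blunted rises, with a mean of 10.27 in control cells without EGF. VWF had means of 3.15 without EGF and 3.29 with EGF in control cells.

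Responses to the loss of EGF mostly ran in the same direction under both siRNAs and were mostly smaller in the BRCA2-labelled cells. In limma, 595 of 17945 genes had an interaction with an adjusted p under 0.05, which is 3.32% of the genes tested. Of these, 248 interactions were positive and 347 were negative, and 303 were at least 2-fold. A response was called blunted where the interaction ran against a called response of the control cells and the BRCA2-labelled response was not called in the other direction. By this rule 578 of the 595 genes were blunted (3.22% of the genes tested), of which 338 rose and 240 fell on EGF withdrawal in control cells. Another 12 genes (0.0669%) were called in opposite directions under the siRNAs, and 5 (0.0279%) had a larger response in the BRCA2-labelled cells. Among the blunted genes, the median size of the response was 0.41 (log2) in BRCA2-labelled cells and 1.39 in control cells, 297 of the 578 responses were still called in the BRCA2-labelled cells, and 509 kept their sign. These sizes describe genes picked for the difference and carry no test. Of the 338 blunted rises, 28 reached the filter's floor in the control libraries without EGF alone and so had to differ. Leaving them aside, 310 blunted rises and 567 called genes remain. Genes such as PDK4, which also reached the floor in BRCA2-labelled replicate C without EGF but needed the control libraries to pass, are not among the 28. They stay within the 310 and the 567, and their number was not counted. At the threshold, RCBTB2 lay close inside, with an interaction of -0.73 and an adjusted p of 0.0494, and POLR3G lay close outside, with 0.95 and 0.0501.

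The smaller response was not confined to the genes called. Withdrawal changed 4871 genes in BRCA2-labelled cells, 467 of them at least 2-fold, and 9121 genes in control cells, 2312 of them at least 2-fold. These are 27.1% and 50.8% of the genes tested, with 13.4% raised and 13.8% lowered in BRCA2-labelled cells and 24.7% raised and 26.1% lowered in control cells. Of the 2312 genes that moved at least 2-fold in control cells, 2272 moved in the same direction in BRCA2-labelled cells, with a median of 48.0% of the control response and an interquartile range of 34.8 to 61.3%. Rises and falls were alike in this, with medians of 47.0% for 1504 rises and 49.7% for 808 falls. Chance error in the control response lowers a share taken over genes picked on that response. Picked instead on the BRCA2-labelled response, 467 genes had a median of 69.1%, and 386 of them still had the smaller response in BRCA2-labelled cells. The 2-fold genes in the same direction under both siRNAs numbered 425, which were most of the 467 and a minority of the 2312. Over all 17945 genes, without any choice on size, the response was smaller in BRCA2-labelled cells in 13328 genes (74.3%), with a median size of 0.26 in BRCA2-labelled cells and 0.42 in control cells. The responses under the siRNAs were taken from separate libraries. Within replicate A alone 70.5% of genes had the smaller response in BRCA2-labelled cells, and within replicate C alone 68.3%. The extent differed between these replicates. Over the 2312 genes, the median size in replicate A was 0.58 in BRCA2-labelled cells and 1.49 in control cells. In replicate C it was 0.70 and 1.19.

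**Figure D1:**
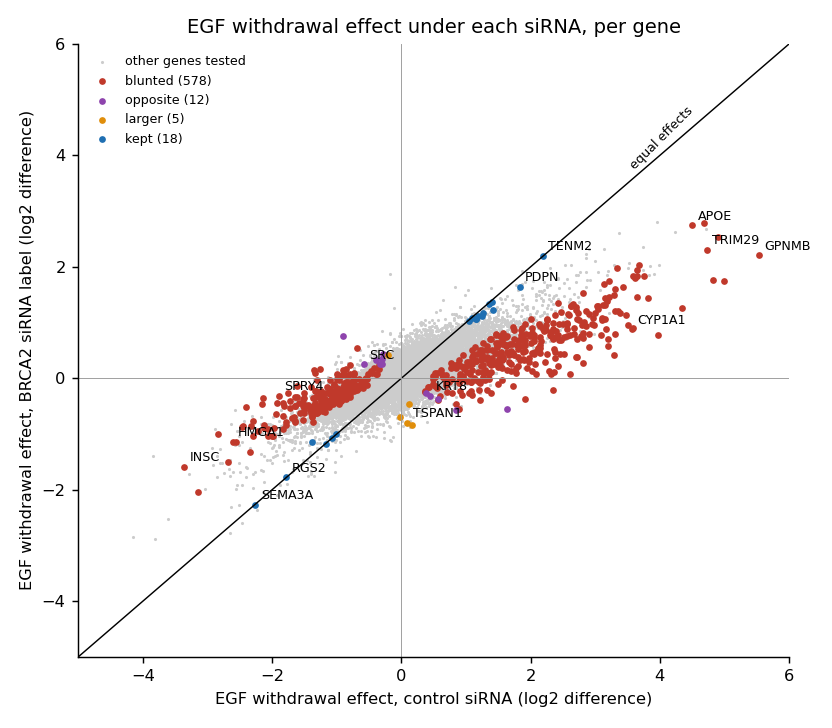
Each point is a gene, with its response to EGF withdrawal in control cells on the x axis and in BRCA2-labelled cells on the y axis, both as log2 differences. Of the 578 blunted genes, 509 lie between the horizontal axis and the line of equal effects and the others lie across that axis, while the 18 kept genes lie along that line.

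The libraries can be placed on the same scale. With the mean of the control libraries with EGF at 0 and that of the control libraries without EGF at 100%, the median position over the 2312 genes was 39.1%, 48.7% and 61.6% in the BRCA2-labelled libraries without EGF, replicates A, B and C. The BRCA2-labelled libraries with EGF lay at -1.96%, -3.12% and 10.5%. The control libraries, which set the scale, lay at 100% and 99.6% without EGF and at -7.84%, -4.36% and 11.9% with EGF. All 3 BRCA2-labelled libraries without EGF thus lay between the other groups, and replicate C lay on the high side both in that group and among the libraries with EGF.

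The same difference can be read as an siRNA effect that was present without EGF and small with it. Between BRCA2-labelled and control cells 3687 genes (20.5%) differed without EGF, and 1 gene, MTATP8P1, differed with EGF (0.00557%, with 508 at an unadjusted p under 0.05). Of the 578 blunted genes, 575 were called between the siRNAs without EGF and 0 with EGF, and the median size of the siRNA effect was 0.94 without EGF and 0.08 with EGF. These comparisons use the same libraries as the interaction, so they are another arrangement of it and not further evidence.

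How many genes passed the threshold rested on single libraries. Leaving out either control library without EGF leaves 1 library in that group, so those fits also lose replication. No gene was called by limma without control replicate A without EGF (smallest adjusted p 0.0719), without control replicate C without EGF (0.142), without control replicate A with EGF (0.0595) or without BRCA2-labelled replicate C with EGF (0.055), with 2615, 2913, 2982 and 3400 genes at an unadjusted p under 0.05. One library, BRCA2-labelled replicate B without EGF, left 1 gene when it was left out. The counts were 62 without BRCA2-labelled replicate A without EGF, 1041 without replicate C of that group, 157 and 426 without BRCA2-labelled replicates A and B with EGF, and 501 and 1606 without control replicates B and C with EGF. With 1 library left out, the sizes moved far less than the counts. Over the genes among the 595 that could be refitted, the median size of the interaction was between 0.93 and 1.10 with any 1 library left out. With all libraries it was 1.02, or 0.98 over the 567 genes refitted without a control library without EGF. This median had little room to move. The genes were picked for their interactions in the same libraries, and each fit keeps all but 1 of them. A gene named below as past the threshold is thus past it in the fit of all 11 libraries, and none of those genes stayed past it in all of the leave-out fits.

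**Figure D2:**
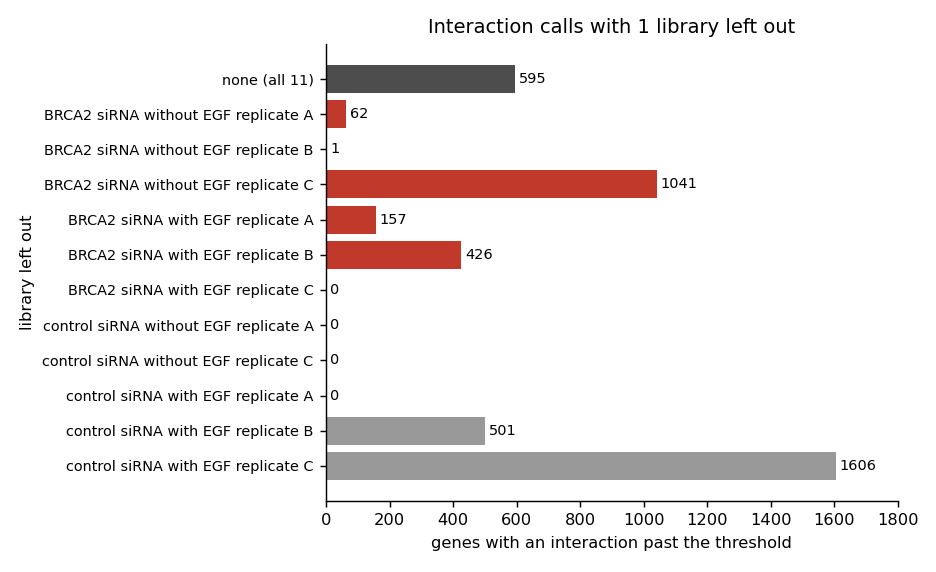
Bars give the number of genes with an interaction past the threshold when the library named at the left is left out, with the count from all 11 libraries on top. The count ranges from 0, for 4 of the libraries, to 1606.

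Among the blunted rises, GPNMB, a transmembrane glycoprotein of lysosomes and melanosomes, had the largest interaction of the named genes. Its log2 values were 7.62, 8.32 and 9.20 without EGF against 5.83, 6.36 and 6.31 with EGF in BRCA2-labelled cells. In control cells they were 11.49 and 11.68 without EGF against 5.95, 5.86 and 6.34 with EGF. The gene was induced under both siRNAs, and the highest BRCA2-labelled library without EGF lay below both control libraries without EGF. The response was 2.21 ± 0.32 in BRCA2-labelled cells and 5.54 ± 0.36 in control cells, and the interaction was -3.32 ± 0.48 (adjusted p 0.0167). With any 1 library left out the interaction of GPNMB lay between -3.73 and -2.94. It was -3.76 within replicate A and -2.45 within replicate C.

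TRIM29, which marks basal cells of stratified epithelia, had 8.88, 9.28 and 10.17 without EGF against 6.81, 7.21 and 7.38 with EGF in BRCA2-labelled cells. In control cells TRIM29 had 11.69 and 11.85 without EGF against 6.94, 7.17 and 7.0 with EGF. All 4 groups were apart except the pair with EGF, and the interaction was -2.42 ± 0.40 (adjusted p 0.0235). CYP1A1, a monooxygenase induced by the aryl hydrocarbon receptor, had 6.00, 6.59 and 7.61 without EGF against 5.74, 5.71 and 6.12 with EGF in BRCA2-labelled cells, where the groups overlapped and the response of 0.88 was not called (adjusted p 0.0585). In control cells CYP1A1 had 9.43 and 9.38 without EGF against 5.77, 6.02 and 5.71 with EGF, a clear separation. Its interaction was -2.69 ± 0.47 (adjusted p 0.0254).

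KRT16, a keratin of wounded and activated epidermis, had 11.20, 11.28 and 11.99 without EGF against 10.27, 10.74 and 10.54 with EGF in BRCA2-labelled cells. In control cells KRT16 had 13.25 and 13.41 without EGF against 10.31, 10.72 and 10.11 with EGF. Its response was 0.97 in BRCA2-labelled cells and 2.95 in control cells, with an interaction of -1.98 ± 0.32 (adjusted p 0.0235). KRT16 has close paralogs and pseudogenes among the keratins, so reads could have been split between them.

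The other 8 blunted rises named by size had interactions between -2.63 and -2.01. Carbonic anhydrase CA2 rose by 3.20 in control cells, against 0.57 in BRCA2-labelled cells, where the change was not called. The endothelial growth factor receptor KDR had the same pattern, with 0.43 in BRCA2-labelled cells, not called, against 2.51 in control cells. The remaining 6 rose under both siRNAs: PPFIBP2, a liprin; TGFBR3, the co-receptor betaglycan; GRHL3, a transcription factor of the epidermal barrier; PRODH, proline dehydrogenase; the receptor FGFR2; and MAL2, a protein of membrane traffic. Their responses were 0.71 to 1.20 in BRCA2-labelled cells and 2.72 to 3.30 in control cells.

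Among the blunted falls, SPRY4, a Sprouty inhibitor of receptor tyrosine kinase signalling had no called response in BRCA2-labelled cells. SPRY4 had 10.28, 10.14 and 10.08 without EGF against 10.54, 10.68 and 10.21 with EGF in BRCA2-labelled cells, where the groups overlapped. In control cells SPRY4 had 8.74 and 8.64 without EGF against 10.84, 10.54 and 10.39 with EGF, well apart. The response was -0.31 in BRCA2-labelled cells (adjusted p 0.113) and -1.90 in control cells, and the interaction was 1.59 ± 0.21 (adjusted p 0.0167).

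The PEA3 factors ETV4 and ETV5, transcription factors downstream of MAPK, fell under both siRNAs and by less in BRCA2-labelled cells. ETV4 had 8.62, 8.13 and 8.12 without EGF against 9.06, 9.40 and 9.01 with EGF in BRCA2-labelled cells, and 7.07 and 6.76 without EGF against 9.54, 9.49 and 9.08 with EGF in control cells. Its interaction was 1.59 ± 0.27 (adjusted p 0.0235), and that of ETV5 was 1.47 ± 0.29 (adjusted p 0.0304). HMGA1, an architectural chromatin protein, had 11.95, 11.63 and 11.34 without EGF against 12.80, 12.81 and 12.73 with EGF in BRCA2-labelled cells. In control cells HMGA1 had 10.38 and 10.20 without EGF against 13.07, 12.97 and 12.68 with EGF. Neither siRNA left any overlap between the media, and HMGA1 fell by 1.14 in BRCA2-labelled cells and by 2.61 in control cells.

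**Figure D3:**
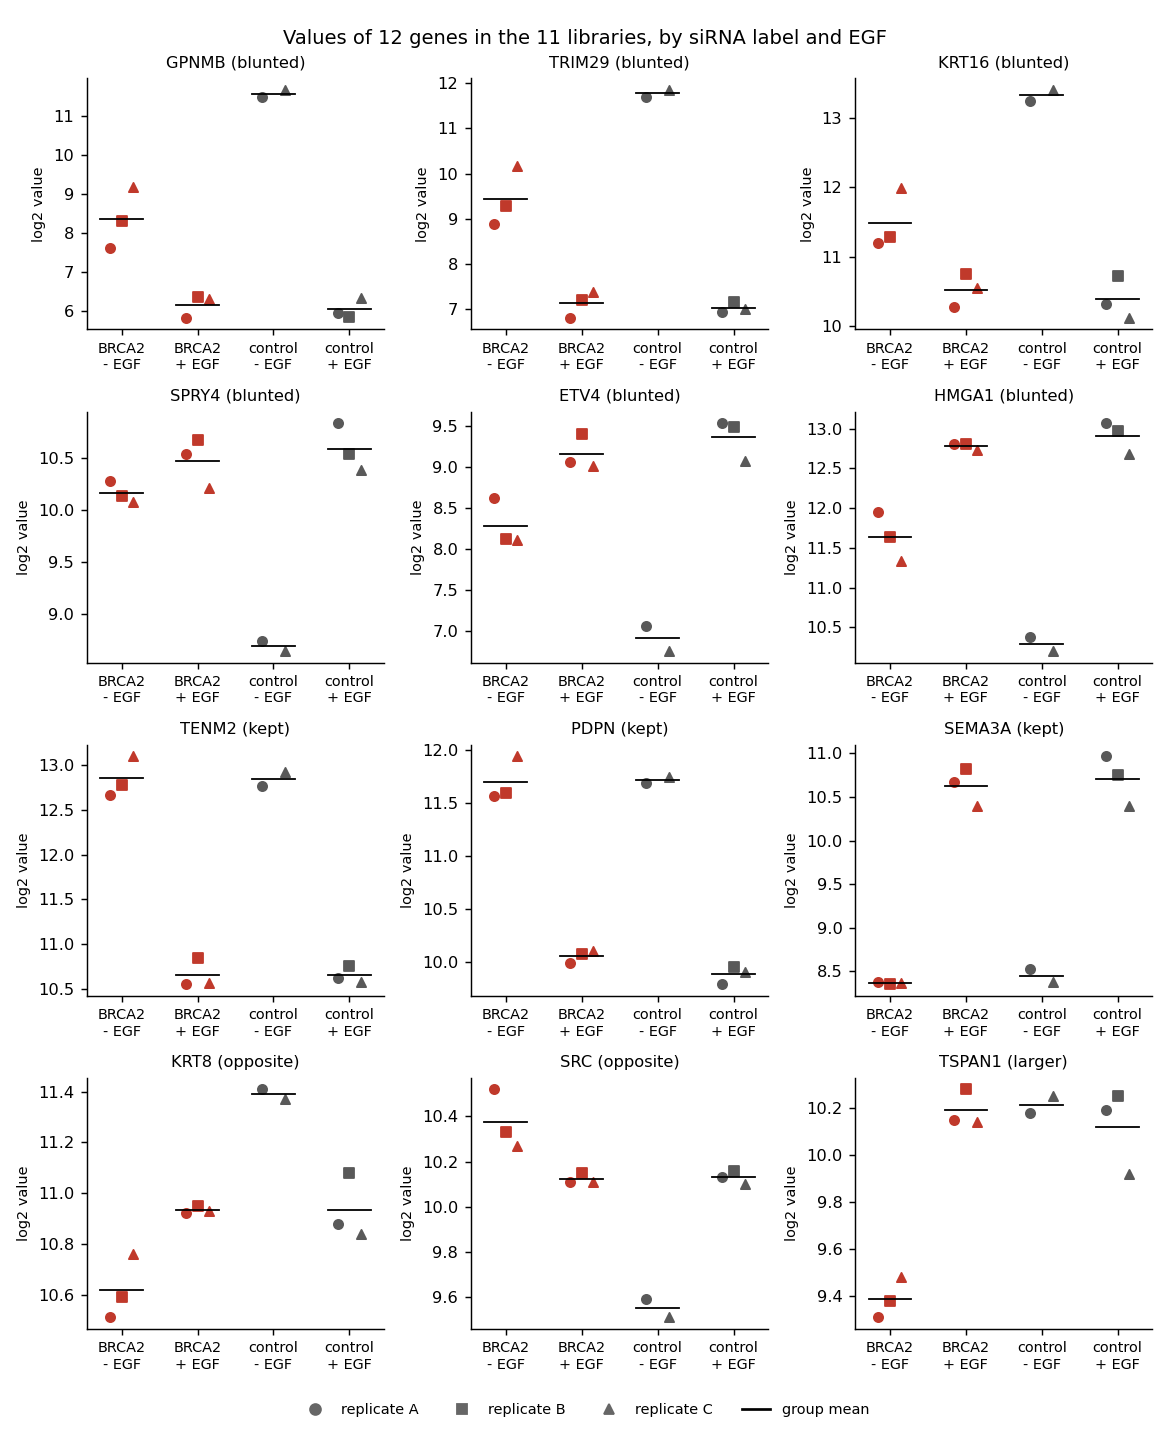
Deposited log2 values of 12 genes in the 11 libraries, with symbols for replicates A, B and C and a line at each group mean. In the blunted genes GPNMB, TRIM29, KRT16, ETV4 and HMGA1 the BRCA2-labelled libraries without EGF lie between the control libraries without EGF and the libraries with EGF, in SPRY4 they overlap the BRCA2-labelled libraries with EGF, and in the kept genes TENM2, PDPN and SEMA3A the libraries without EGF lie together under both siRNAs.

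The other blunted falls named by size had interactions between 1.43 and 1.89. They were MARCHF4, a membrane ubiquitin ligase; BCAT1, a branched-chain aminotransferase; KIAA1549L; INSC, an adaptor of spindle orientation; PDE2A, a cyclic nucleotide phosphodiesterase; RPSAP52, a pseudogene transcript; PDCD1LG2, a ligand of PD-1; and ANGPTL4, an inhibitor of lipoprotein lipase. KIAA1549L, PDCD1LG2 and ANGPTL4 were not called in BRCA2-labelled cells, with responses of -0.36, -0.45 and 0.16. The others fell there too, by 0.47 in PDE2A up to 1.59 in INSC. Reads of the pseudogene RPSAP52 may be shared with its parent gene or with overlapping transcripts, so its values are uncertain.

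Kept responses needed more than a missed threshold. They were called and at least 2-fold under both siRNAs in the same direction, with the 95% interval of the interaction inside a 1.5-fold difference either way. By this rule 18 genes were kept (0.1% of the genes tested), 12 rises and 6 falls. Many genes could not qualify because their intervals were too wide. The median standard error of the interaction was 0.23 over all genes, and with a 2-fold bound 109 genes were kept.

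TENM2, a teneurin of the cell surface, had 12.67, 12.78 and 13.10 without EGF against 10.55, 10.84 and 10.57 with EGF in BRCA2-labelled cells. In control cells TENM2 had 12.77 and 12.92 without EGF against 10.62, 10.76 and 10.58 with EGF. The values without EGF overlapped between the siRNAs, and both responses were clear of the spread. The response was 2.20 ± 0.12 in BRCA2-labelled cells and 2.19 ± 0.13 in control cells, and the interval of the interaction was -0.39 to 0.40. PDPN, the mucin-like podoplanin, had 11.56, 11.59 and 11.94 without EGF against 9.99, 10.08 and 10.10 with EGF in BRCA2-labelled cells, and 11.69 and 11.74 without EGF against 9.79, 9.95 and 9.91 with EGF in control cells. Its interaction was -0.19 ± 0.15, with an interval of -0.53 to 0.14.

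SEMA3A, a secreted semaphorin that repels axons and acts on epithelial and endothelial cells, had 8.38, 8.35 and 8.36 without EGF against 10.67, 10.82 and 10.40 with EGF in BRCA2-labelled cells. In control cells SEMA3A had 8.52 and 8.38 without EGF against 10.97, 10.75 and 10.40 with EGF. It fell by 2.27 in BRCA2-labelled cells and by 2.26 in control cells, and the interval of the interaction was -0.48 to 0.46. RGS2, which shortens signalling by G proteins, had 10.72, 10.62 and 10.55 without EGF against 12.49, 12.51 and 12.22 with EGF in BRCA2-labelled cells. In control cells RGS2 had 10.59 and 10.79 without EGF against 12.70, 12.45 and 12.24 with EGF. The groups without EGF overlapped between the siRNAs, and the interval of the interaction was -0.40 to 0.40.

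ETV1, the third member of the PEA3 family, was kept where ETV4 and ETV5 were blunted. ETV1 had 8.05, 8.01 and 7.90 without EGF against 9.23, 8.83 and 9.13 with EGF in BRCA2-labelled cells, and 7.69 and 7.78 without EGF against 8.88, 8.60 and 8.97 with EGF in control cells. Here the BRCA2-labelled means were higher in both media, so the difference between media was alike: -1.08 in BRCA2-labelled cells and -1.07 in control cells, with an interval of -0.43 to 0.42 for the interaction. Whether the interaction of ETV1 differs from those of ETV4 and ETV5 was not tested. DKK1, a secreted inhibitor of Wnt signalling, fell by 1.00 in BRCA2-labelled cells and by 1.01 in control cells (interval -0.36 to 0.38).

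The other kept genes named by size were PSG4, a pregnancy-specific glycoprotein; AFAP1L2, an adaptor of actin and SRC; MTUS1, a microtubule-associated protein; TGFBI, a matrix protein induced by TGF-beta; SIRPA, the receptor of CD47; MOB3B; and SUGCT, a mitochondrial CoA transferase that fell. Their interactions lay between -0.19 in MTUS1 and 0.23 in SUGCT. PSG4 and SIRPA belong to families of near-identical genes, among which reads could be split. With any 1 library left out, the interactions of the 13 kept genes named here lay between -0.31, in PDPN, and 0.30, in SUGCT.

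**Figure D4:**
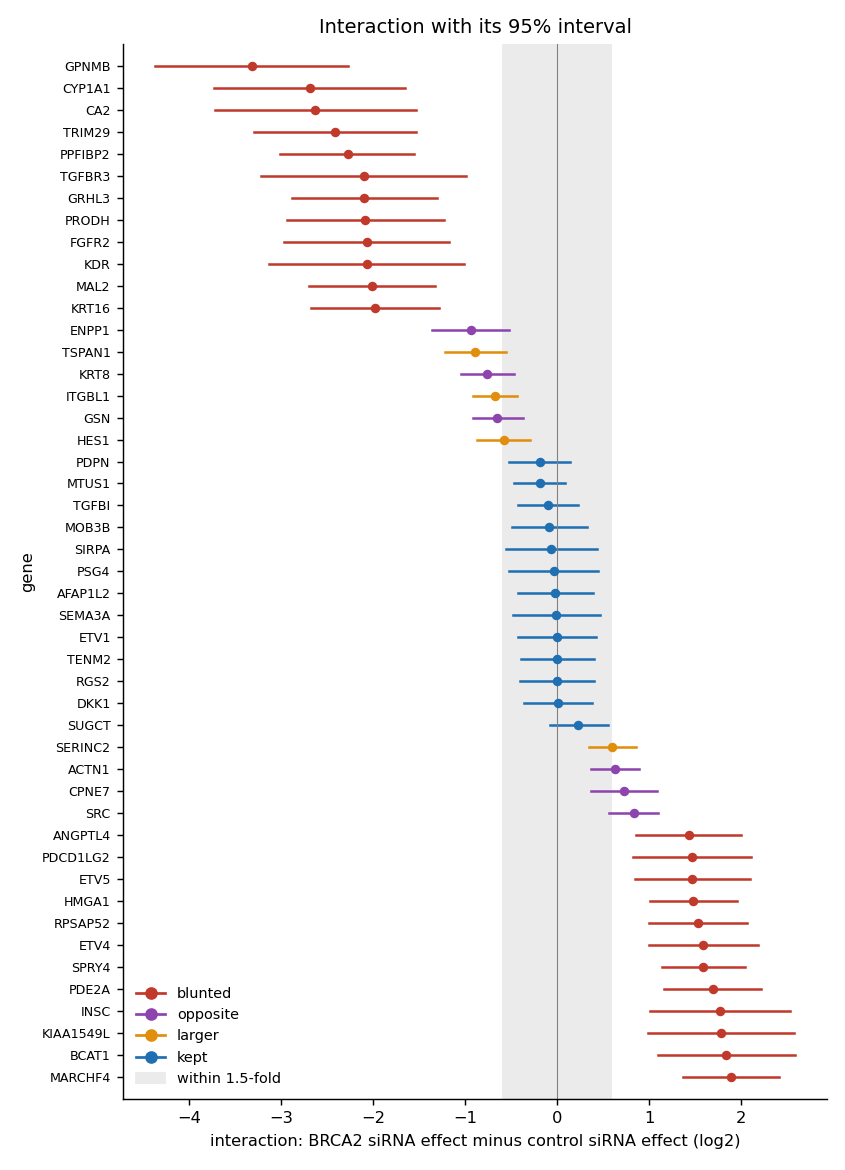
Points are the interactions, in log2 units, of the genes named by size in each class, BRCA2-labelled response minus control response, with 95% moderated intervals. The shaded band marks a 1.5-fold difference either way; the intervals of the kept genes lie inside it, and those of the blunted genes plotted lie outside, from GPNMB at -3.32 to MARCHF4 at 1.89.

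In 12 genes the direction of the response was called opposite under the siRNAs. KRT8, a simple-epithelium keratin, had 10.51, 10.59 and 10.76 without EGF against 10.92, 10.95 and 10.93 with EGF in BRCA2-labelled cells. In control cells KRT8 had 11.41 and 11.37 without EGF against 10.88, 11.08 and 10.84 with EGF. Without EGF, KRT8 was thus below its level with EGF in every BRCA2-labelled library and above it in both control libraries, with an interaction of -0.76 ± 0.13 (adjusted p 0.0248). The tyrosine kinase SRC went the other way. SRC had 10.52, 10.33 and 10.27 without EGF against 10.11, 10.15 and 10.11 with EGF in BRCA2-labelled cells, and 9.59 and 9.51 without EGF against 10.13, 10.16 and 10.10 with EGF in control cells. Its interaction was 0.83 ± 0.12 (adjusted p 0.0178).

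The ectoenzyme ENPP1 and the actin-severing protein GSN fell in BRCA2-labelled cells, by 0.38 and by 0.27, and rose in control cells, by 0.56 and 0.38. The actin crosslinker ACTN1, the copine CPNE7 and the hexokinase HK2 rose in BRCA2-labelled cells, by 0.34, 0.33 and 0.25, against control responses of -0.30, -0.40 and -0.30. All of these responses were below 2-fold.

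A larger response in BRCA2-labelled cells was called in 5 genes. TSPAN1, a tetraspanin, had 9.31, 9.38 and 9.48 without EGF against 10.15, 10.28 and 10.14 with EGF in BRCA2-labelled cells, and 10.18 and 10.25 without EGF against 10.19, 10.25 and 9.92 with EGF in control cells. The BRCA2-labelled libraries without EGF stood below all others, and the interaction was -0.89 ± 0.15 (adjusted p 0.0235). ITGBL1, an integrin-beta-like protein, and HES1, a repressor induced by Notch, fell by 0.70 and by 0.47 in BRCA2-labelled cells, against control responses of -0.02 and 0.11 that were not called. SERINC2 rose by 0.41 in BRCA2-labelled cells, with a control response of -0.20.

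Gene lists written from textbook knowledge place these genes in pathways. Because the lists were chosen with results of these data known, their counts are descriptions beside the background of 1.93% of all genes with a called negative interaction and 1.38% with a positive one. Over all genes tested the median interaction was 0.02, and 74.3% had the smaller response in BRCA2-labelled cells. That share is the background for the counts of smaller responses below.

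Of 27 MAPK feedback and immediate-early genes, 2 had a called negative and 5 a called positive interaction. SPRY4, ETV4, ETV5 and FOSL1 fell in control cells, while FOSB rose. FOSL1, an AP-1 subunit, fell by 1.65 in control cells, with -0.34 in BRCA2-labelled cells, not called. FOSB, another AP-1 subunit, had 7.51, 7.98 and 8.52 without EGF against 7.13, 7.49 and 6.97 with EGF in BRCA2-labelled cells, and 10.28 and 10.15 without EGF against 7.32, 7.83 and 7.48 with EGF in control cells. Its interaction was -1.87 ± 0.35 (adjusted p 0.0286). Among 12 EGF receptor family genes and ligands no interaction was called. The ligands TGFA and AREG fell by 0.65 and by 0.99 in BRCA2-labelled cells and by 1.46 and by 1.79 in control cells, with interactions of 0.81 ± 0.29 and 0.80 ± 0.35 (adjusted p 0.134 and 0.212).

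Genes of mitosis fell in control cells and fell less in BRCA2-labelled cells. Of 33 genes tested, 13 had a called positive interaction and none a called negative one, and 32 had the smaller response in BRCA2-labelled cells. Withdrawal lowered 17 of them in BRCA2-labelled cells and 30 in control cells, with list medians of -0.39 and -0.95. CDC20, an activator of the anaphase-promoting complex, had 12.53, 12.29 and 12.02 without EGF against 12.82, 12.78 and 12.70 with EGF in BRCA2-labelled cells. In control cells CDC20 had 11.25 and 11.37 without EGF against 12.95, 12.86 and 12.68 with EGF. The BRCA2-labelled libraries without EGF lay between the other groups, with no overlap, and the interaction was 1.04 ± 0.18 (adjusted p 0.0242). The ubiquitin-conjugating enzyme UBE2C, the cyclin CCNB2 and the kinase PLK1 had interactions of 0.77 ± 0.13, 0.66 ± 0.13 and 0.78 ± 0.15.

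Promoters of mitotic genes are known for 2 short elements, the cell cycle homology region (CHR, TTTGAA), bound by the DREAM complex and by MuvB with FOXM1, and the CCAAT box (CCAAT), bound by NF-Y. The 150 bases before the gene start are shown for CDC20, CCNB2 and PLK1, from RefSeq on GRCh38.p14, as 3 of the named mitotic genes whose falls were blunted together, with both elements in capitals on either strand. They are CDC20 at chr1:43358831-43358980, CCNB2 at chr15:59104996-59105145 and PLK1 at chr16:23678739-23678888, all on the plus strand.
CDC20: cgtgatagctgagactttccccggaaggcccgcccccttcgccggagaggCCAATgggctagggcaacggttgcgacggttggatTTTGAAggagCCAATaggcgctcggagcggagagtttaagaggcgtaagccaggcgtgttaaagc
CCNB2: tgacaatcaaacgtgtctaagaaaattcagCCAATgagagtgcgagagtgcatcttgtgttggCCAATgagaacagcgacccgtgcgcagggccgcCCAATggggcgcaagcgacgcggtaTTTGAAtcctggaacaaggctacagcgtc
PLK1: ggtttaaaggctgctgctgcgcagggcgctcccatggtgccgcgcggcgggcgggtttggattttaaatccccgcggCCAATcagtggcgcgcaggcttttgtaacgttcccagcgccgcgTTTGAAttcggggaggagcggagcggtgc
The CHR began 65 bases before the gene start in CDC20 and 29 bases before it in CCNB2 and PLK1. Of 28 list members with a promoter in the table, 14 held a CHR, 23 a CCAAT box and 13 both. Of the 9 with a called interaction, 5 held a CHR, 5 a CCAAT box and 5 both. The 3 shown all hold both elements and so do not stand for all 9. Over all 35116 promoters of this length, 7.33% held a CHR, 23.5% a CCAAT box and 1.94% both. A match is a description of the letters and not evidence of a bound site.

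Among 39 genes of DNA replication, 2 had a called interaction: CDC6, which loads the replicative helicase, and CDC45, a part of that helicase, at 0.93 ± 0.19 and 0.93 ± 0.21. Among 34 genes of homologous recombination and Fanconi anaemia, no interaction was called, with a list median of 0.39. FANCD2, a core protein of that pathway, had 0.58 ± 0.15 (adjusted p 0.0563). Among 21 replication-dependent histones no interaction was called, though all 21 had the smaller response in BRCA2-labelled cells, with a list median of -0.52 there and of -0.94 in control cells.

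Among 22 cornified envelope and keratinocyte differentiation genes, withdrawal raised 12 and lowered 1 in BRCA2-labelled cells and raised 15 and lowered 2 in control cells, with list medians of 0.87 and 2.35. A negative interaction was called in 9 of the 22, of which KRT4 passed the filter through the control libraries without EGF alone, which leaves 8. Involucrin, IVL, a major precursor of the cornified envelope, was not among them, with responses of 0.64 in BRCA2-labelled cells and 0.18 in control cells, neither called, and it is named after its values were seen. PPL, the desmosomal linker periplakin, had 11.37, 11.65 and 12.16 without EGF against 10.45, 10.73 and 10.77 with EGF in BRCA2-labelled cells. In control cells PPL had 13.58 and 13.67 without EGF against 10.54, 10.68 and 10.76 with EGF. Both responses cleared the spread, and the interaction was -1.89 ± 0.25 (adjusted p 0.0167). The desmosomal cadherin DSG1 rose by 1.26 in BRCA2-labelled cells and by 4.34 in control cells.

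Of 25 basal keratinocyte and hemidesmosome genes, 7 had a called negative interaction. KRT15, a keratin of basal cells, had 9.98, 10.43 and 10.95 without EGF against 10.06, 10.18 and 10.23 with EGF in BRCA2-labelled cells, which overlapped. In control cells KRT15 had 12.64 and 12.53 without EGF against 10.25, 10.31 and 10.50 with EGF. Its interaction was -1.94 ± 0.28 (adjusted p 0.0167), and that of KRT6A, whose reads could be split with its near-copies, was -0.73 ± 0.16 (adjusted p 0.0372).

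Of 24 FOXO factors and targets, 6 had a called negative interaction. These 6 include PDK4, which needed the control libraries without EGF to pass the filter, so its call is no support. Of the 24, withdrawal raised 9 in BRCA2-labelled cells and 17 in control cells. FOXO1 itself, a factor that AKT restrains, had 8.83, 8.95 and 9.30 without EGF against 7.77, 7.74 and 8.07 with EGF in BRCA2-labelled cells. In control cells FOXO1 had 10.54 and 10.53 without EGF against 7.44, 7.69 and 8.24 with EGF. It rose under both siRNAs, with an interaction of -1.58 ± 0.29 (adjusted p 0.0276). PIK3IP1, an inhibitor of PI3K, and the cyclin CCNG2 rose by 1.95 and 0.97 in control cells, with 0.18 and 0.17 in BRCA2-labelled cells, neither called.

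Genes of amino acid supply fell together in control cells, but few interactions passed the test. Of 30 ATF4 targets, amino acid transport genes and tRNA synthetases, withdrawal lowered 9 in BRCA2-labelled cells and 27 in control cells, with list medians of -0.54 and -1.42. The median interaction was 0.92, yet 1 gene was called, ATF4 itself. ATF4, the transcription factor of the integrated stress response, had 14.58, 14.52 and 14.37 without EGF against 15.04, 15.08 and 14.84 with EGF in BRCA2-labelled cells. In control cells ATF4 had 13.59 and 13.55 without EGF against 15.19, 15.17 and 14.68 with EGF. The interaction of ATF4 was 0.95 ± 0.19 (adjusted p 0.0324). CHAC1, which degrades glutathione and is an ATF4 target, had 2.46 ± 0.66 (adjusted p 0.0652), and the glycyl-tRNA synthetase GARS1 had 1.22 ± 0.31 (adjusted p 0.0532). The libraries with EGF were spread widely in the lists of NF-kB cytokines, DNA replication and sterol synthesis, and in this list too. Its median in control libraries with EGF, relative to their mean, was 0.14, 0.38 and -0.49 in replicates A, B and C, and in BRCA2-labelled libraries with EGF it was -0.15, 0.32 and -0.40.

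Other growth-related lists had positive medians and few calls. The called genes were PDIA4 of 20 endoplasmic reticulum chaperones, NOP16 of 32 ribosome biogenesis genes, FADS1 of 31 sterol and fatty acid synthesis genes, and ANGPTL4, PFKP and HK2 of 30 genes of glycolysis and hypoxia. The list medians of the interaction were 0.44, 0.33, 0.26 and 0.24. PFKP, a phosphofructokinase, fell by 0.34 in BRCA2-labelled cells and by 0.98 in control cells.

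Among immune and secreted products, 3 of 29 interferon-stimulated genes were called, IFI44L, RSAD2 and IFIT2, of which RSAD2 passed the filter through the control libraries without EGF alone, which leaves 2. IFIT2 rose by 1.19 in BRCA2-labelled cells and by 2.47 in control cells. The complement component C3 had 12.97, 13.28 and 13.80 without EGF against 11.16, 11.46 and 11.51 with EGF in BRCA2-labelled cells. In control cells C3 had 14.90 and 14.82 without EGF against 11.33, 11.66 and 11.60 with EGF. All libraries without EGF were above those with EGF, with an interaction of -1.36 ± 0.27 (adjusted p 0.0307). Of 21 NF-kB and inflammatory cytokine genes, CSF3, which encodes the granulocyte colony-stimulating factor, was called, and fell by 0.45 in BRCA2-labelled cells and by 1.58 in control cells.

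In the lysosome list the called genes were GPNMB and the cathepsins CTSD and CTSF, 3 of 29. In the list of lipid carriers it was APOE, 1 of 15, which rose by 2.75 in BRCA2-labelled cells and by 4.50 in control cells. Among 25 fibrillar collagen and mesenchymal genes, the collagen COL5A2 and the proteoglycan DCN had called interactions of -0.97 ± 0.18 and -1.07 ± 0.25. Of 16 matrix proteases and inhibitors, the metalloproteinase inhibitor TIMP3 rose by 1.83 in BRCA2-labelled cells and by 3.58 in control cells, and the protease inhibitor SERPINE2 fell by 0.39 and, in control cells, by 1.24. The third called gene of that list was the metalloproteinase ADAMTS1. Of 22 TGF-beta and YAP targets, tissue factor F3 and TGFB1 were called and TGFBI was kept. The median of that list was 0.07 and was -0.02 after quantile normalization. The leukocyte and endothelial list had 3 genes tested, with KDR called.

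The p53 targets had close medians under both siRNAs, -0.40 in BRCA2-labelled cells and -0.50 in control cells. Withdrawal lowered 11 of 28 in BRCA2-labelled cells and 15 in control cells. Over p53 targets called in control cells, the median share kept in BRCA2-labelled cells was 74.7%, beside 50.3% over all genes called there. This difference was not tested. Of these 18 targets, 16 still had the smaller response in BRCA2-labelled cells, and no p53 target met the rule for a kept response. BTG2, an antiproliferative p53 target, was the called gene of this list, with an interaction of -0.93 ± 0.17 (adjusted p 0.0276). The median interaction of the p53 list was 0.06, and it was -0.04 after quantile normalization and -0.03 within replicate C.

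Mitochondrially encoded mRNAs went the other way from most lists, with 1 of 13 showing the smaller response in BRCA2-labelled cells. Withdrawal raised 9 of them in BRCA2-labelled cells and 4 in control cells, with list medians of 0.79 and 0.30, and no interaction was called. MT-ND4, a subunit of respiratory complex I, had 14.04, 13.68 and 13.70 without EGF against 12.66, 13.09 and 13.21 with EGF in BRCA2-labelled cells. In control cells MT-ND4 had 13.93 and 13.82 without EGF against 13.64, 13.57 and 13.92 with EGF. The BRCA2-labelled libraries with EGF lay below all the others, and the interaction was 0.66 ± 0.23 (adjusted p 0.123).

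Cytosolic ribosomal protein genes moved little. Withdrawal lowered 15 of 36 in BRCA2-labelled cells and 2 in control cells, with list medians of -0.25 and 0.03, and 5 of 36 had the smaller response in BRCA2-labelled cells. No interaction was called in this list. Ribosomal protein genes have many processed pseudogenes, so their values are uncertain.

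**Figure D5:**
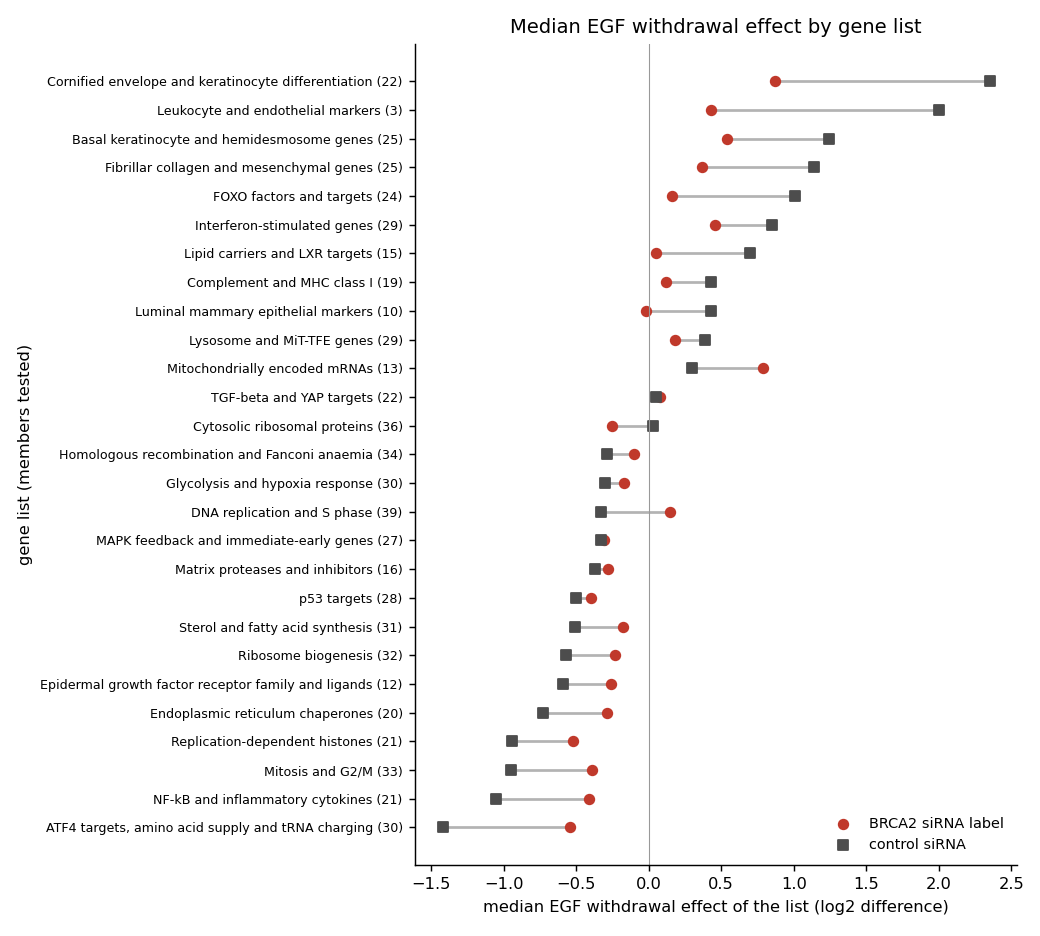
Circles give the median response to EGF withdrawal of each gene list in BRCA2-labelled cells and squares the same in control cells, as log2 differences, with the number of genes tested beside the name. The circles lie nearer to 0 than the squares in most lists, and lie farther out for mitochondrially encoded mRNAs (0.79 against 0.30), cytosolic ribosomal proteins (-0.25 against 0.03) and, by little, TGF-beta and YAP targets (0.08 against 0.05).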

How the data were processed

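The authors deposited 1 table of log2 values for 40460 Ensembl genes in 11 libraries. Per the submitters' processing notes, hg19, TopHat2 2.0.11, DESeq2 and limma were used, with no role or order. The transform, annotation and read counter were not given in the sources used here, and the table holds no counts, so the deposited log2 scale may compress changes of weakly expressed genes. The 4 libraries of replicate A had the same mean as the 7 of B and C in all 40460 genes (largest difference 7.2e-09), so the deposited values had been centred between A and the rest without regard to group. Because control cells without EGF lack a replicate B, part of the group differences can be shifted.

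Genes with at least 3.32 (10 on the linear scale) in at least 2 libraries were tested. All 11 libraries entered 1 linear model with the 4 groups, in limma 3.58.1 (R 4.3.3), with a mean-variance trend, 7 residual degrees of freedom and two-sided tests adjusted over all 17945 genes by Benjamini and Hochberg at 0.05. Errors after ± are moderated standard errors. The procedure was tested on simulated data with independent errors. These did not carry the centring of A against the rest, so the simulation cannot show how that centring affects the p-values. P-values set a difference between groups against the spread between libraries within groups. The 7 residual degrees of freedom do not allow for the earlier centring of A against the rest, so standard errors and p-values are approximate.

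The members and the gene lists were chosen with earlier results of these data known. Named genes were BRCA2, then the 12 blunted rises and 12 blunted falls with the largest interaction, up to 6 each of the larger and opposite classes, up to 8 kept rises and 8 kept falls, each with a symbol and a highest group mean above the median gene (8.90), and up to 4 members per list with the smallest p, from which the text takes some. Other members are named only where a count of calls is 5 or fewer, after their values were seen, as are RCBTB2, POLR3G and MTATP8P1. Symbols were found for 30039 of the 40460 genes (74.2%) and 694 of 739 list entries, and results for some genes are not reported here. Alternatives were no filter, a filter at 100, quantile normalization, median centring, no trend, array weights, a replicate block, a term for replicate A, replicates B and C alone, and leaving out each library.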

Additional observations from a re-analysis of the deposited data

Results flagged for a closer look

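The response to EGF withdrawal differed between the siRNAs, by the test of the difference itself, in 595 genes. In 12 genes the response was called in opposite directions, lower without EGF under one siRNA and higher under the other. Their median size was 0.33 in BRCA2-labelled cells and 0.43 in control cells. The number of genes past the threshold rested on single libraries in both cases.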

How the results depend on the processing

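From replicates B and C alone, interactions numbered 0 (923 at an unadjusted p under 0.05), withdrawal effects 46 in BRCA2-labelled cells and 1975 in control cells, siRNA effects 0 without EGF and 0 with EGF (1967 and 145 unadjusted), and blunted, opposite and larger responses were 0 each, with 1 kept. The fit of B and C alone holds 1 control library without EGF, so that group had no replication in it. With array weights, interactions numbered 6771 and withdrawal effects in BRCA2-labelled cells 10373. The siRNA effects then numbered 8678 without EGF and 3658 with EGF, and blunted, opposite, larger and kept responses 5883, 236, 586 and 52. These weights ran from 0.21 to 4.32, and the cause of the rise was not tested. Without the mean-variance trend, 375 interactions and 360 blunted responses were called. Without a filter, 5 opposite and 2 larger responses were called, and after quantile normalization 9 larger ones. With the stricter filter and with a term for replicate A, the single siRNA effect with EGF was lost (0; 284 and 374 unadjusted), and the term gave 500 interactions and 5 opposite responses. With a 2-fold bound 109 responses were kept.

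With the replicate letter as a block, 930 interactions, 906 blunted and 11 larger responses were called, and 0 siRNA effects with EGF (515 unadjusted). Nothing in the labels ties libraries of a letter together. Deviations from the group means correlated between -0.37 and 0.70 over 15 same-letter pairs, above 0.1 in 2 of them, the pairs with EGF of replicates B and C at 0.70 each, and between -0.75 and 0.37 over different letters. The A pairs, at -0.37 to -0.12, bear the centring of A against the rest and so do not show whether A libraries were paired.

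With each library left out in turn, interactions ranged from 0 to 1606, blunted responses from 0 to 1562, opposite from 0 to 23, larger from 0 to 21 and kept from 7 to 19. Withdrawal effects ranged from 2228 to 6196 in BRCA2-labelled cells and from 6070 to 10023 in control cells, and siRNA effects from 515 to 4766 without EGF and from 0 to 1 with EGF.

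Calls of the named genes changed when 1 library was left out. Of 1591 values of the 145 named genes, 490 fell below the threshold, 62 passed it newly and none of those past it changed sign. Signs had little room to change, because most genes were picked for their interactions in the same libraries. Each fit also keeps all but 1 of these libraries. Within replicates A and C alone, 174 of 290 values moved by more than the standard error of the full fit, and 116 did not. Of 594 list medians under other settings, 19 moved by more than the median standard error of their members' interactions. That is an error of single genes and so a loose bound for a median over a list. With 2 control libraries without EGF and unknown depth, small differences in weakly expressed genes could not be resolved.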
